A study of Rattus norvegicus with 8 samples.

Results

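The transcripts described here are those of 10 antigen presentation genes of the rat: the invariant chain Cd74, the class II chains RT1-Da, RT1-Ba and RT1-Bb, the class I light chain B2m, the peptide transport and loading genes Tap1, Tap2 and Tapbp, and the immunoproteasome subunits Psmb8 and Psmb9. Every probe set annotated to 1 of these symbols was taken, which gave 16 probe sets of the 31042 measured, and 0 of them listed a second gene. They were compared between 4 pools of atrial appendage and 4 pools of ventricular free wall from normal male Sprague Dawley rats of 225 to 275 g, 13 animals in all, with no treatment in either group. The left side of both tissues is given by the study's methods and not by the labels, and how the animals were divided among the pools is not given, so each replicate stands for a mixture of animals. Each pool was read on 1 Affymetrix rat array, and the values are log2 signal intensities made by Robust Multiple-Array Averaging (RMA), a method that gives all arrays a shared distribution and yields 1 value per probe set, the set of oligonucleotides designed against a transcript.

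Cells show fragments of their proteins to T cells on molecules of the major histocompatibility complex, which is named RT1 in the rat. Class I molecules pair with B2m on nearly all nucleated cells and carry peptides that the proteasome cuts and the transporter of Tap1 and Tap2 moves into the endoplasmic reticulum. Class II molecules are made mainly by macrophages, dendritic cells and B cells, carry peptides from endosomes and are guided there by the invariant chain. Interferon-gamma raises both routes, class II through the coactivator Ciita. In heart tissue the class II signal comes mostly from cells that lie between the cardiocytes.

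The promoters of the class II chains, of Tap1 and of B2m are shown because these genes are set side by side in the results. The bases before each start site, 5′ to 3′, are from RefSeq (GRCr8), in which 10 of the 10 genes have an entry. Capitals mark a match on either strand to CTGATTGG (the Y box of class II promoters), ACNGATG (part of the X box), TGACGTCA (a cAMP response element), GAAANNGAA (an interferon response element) or GGGACTTTC (a site of NF-kappaB type).
RT1-Da (chr20:4515165-4515414, plus strand): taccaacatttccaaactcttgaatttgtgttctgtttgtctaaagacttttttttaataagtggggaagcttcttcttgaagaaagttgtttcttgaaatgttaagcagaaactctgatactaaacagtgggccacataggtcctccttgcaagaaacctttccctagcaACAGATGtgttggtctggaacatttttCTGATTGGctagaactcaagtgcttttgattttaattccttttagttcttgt
RT1-Ba (chr20:4576807-4577056, plus strand): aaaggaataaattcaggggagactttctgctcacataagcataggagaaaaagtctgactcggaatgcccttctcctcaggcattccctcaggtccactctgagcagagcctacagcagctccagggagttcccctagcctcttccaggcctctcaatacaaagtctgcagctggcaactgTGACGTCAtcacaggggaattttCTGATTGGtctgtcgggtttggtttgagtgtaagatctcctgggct
RT1-Bb (chr20:4604119-4604368, minus strand): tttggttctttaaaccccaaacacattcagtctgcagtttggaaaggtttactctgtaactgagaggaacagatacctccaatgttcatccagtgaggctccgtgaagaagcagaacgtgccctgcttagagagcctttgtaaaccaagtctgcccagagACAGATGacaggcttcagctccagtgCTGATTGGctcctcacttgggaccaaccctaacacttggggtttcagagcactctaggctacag
Tap1 (chr20:4668544-4668793, minus strand): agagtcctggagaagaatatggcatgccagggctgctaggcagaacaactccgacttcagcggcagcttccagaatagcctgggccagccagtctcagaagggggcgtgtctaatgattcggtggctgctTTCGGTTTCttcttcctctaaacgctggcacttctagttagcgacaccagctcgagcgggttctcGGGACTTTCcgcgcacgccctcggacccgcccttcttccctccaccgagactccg
B2m (chr3:129549080-129549329, plus strand): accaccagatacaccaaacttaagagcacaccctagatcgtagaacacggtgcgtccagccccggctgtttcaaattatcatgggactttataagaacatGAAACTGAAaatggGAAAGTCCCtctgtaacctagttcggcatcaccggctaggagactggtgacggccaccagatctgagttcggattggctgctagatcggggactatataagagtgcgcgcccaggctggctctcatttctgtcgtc

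The Y box spelling lay 52, 46 and 64 bases before the starts of RT1-Da, RT1-Ba and RT1-Bb, and after the start of Psmb9. It was held by 3.5% of all 33469 promoter windows, which run from 250 bases before to 50 after each start. In RT1-Da and RT1-Bb the X box part stood upstream of it, with 20 and 19 bases between them, and 10.2% of windows held that spelling. The interferon element was in the windows of B2m, Tap1, Tap2, Tapbp and Psmb8 (9.71% of windows), the NF-kappaB spelling in those of B2m and Tap1 (0.326%) and the cAMP element in that of RT1-Ba (1.83%). In all 14 spellings were searched, several of them chosen after the members' promoters had been read, so the matches are descriptions of letters and not of binding. The spellings not in capitals were CCAAT, whose complement lies within the Y box (7 members, 37.5% of windows), GATGACG (1 member, 2.1%), TTCNNNGAA (1 member, 8.87%), TTCCNGGAA (0 members, 1.27%) and 5 longer forms. Of these, a strict and a loose X box form were in 2 and 4 members (0.0717% and 4.3% of windows), a longer form of the interferon element in 5 (3.92%), and a loose and a palindromic NF-kappaB form in 6 and 0 (19.3% and 0.0627%). Tap1 and Psmb9 are read away from each other, with 456 bases between their starts.

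The antigen presentation genes were lower in the atria than in the ventricles wherever they differed. Of the 16 probe sets, 11 were lower in the atria, 0 were higher and 5 were not called at an adjusted p under 0.05 by limma, a linear model that shares the spread across probe sets. All 16 differences were negative, with a median of -0.50 on the log2 scale against -0.05 over all probe sets. Among all 31042 probe sets 20.1% were lower in the atria and 18.6% were higher, and at an unadjusted p under 0.05 there were also 0 member probe sets higher in the atria. In 10 of the 16 every atrial pool lay below every ventricular pool, as in 19.2% of all probe sets. With 1 probe set per gene, the one of highest mean, 8 of 10 genes were lower and 2, B2m and Tapbp, were not called, beside 22.5% of 14217 genes lower and 22.5% higher. In pooled tissue, fewer cells of a type and less RNA per cell cannot be told apart.

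**Figure D1:**
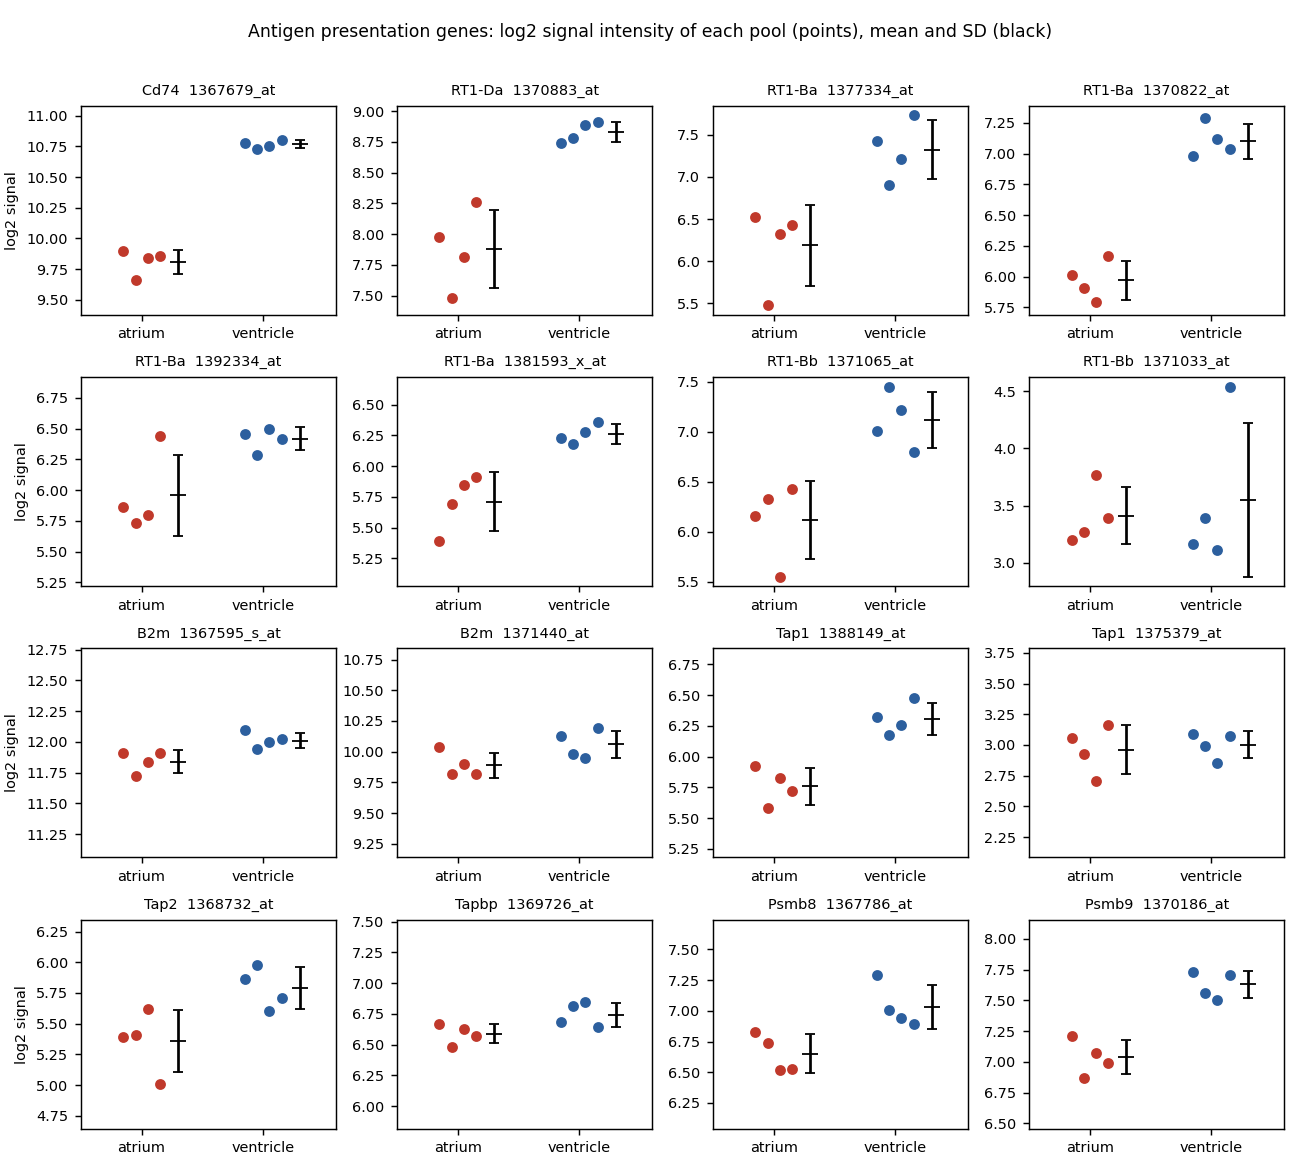
Log2 signal intensity of the 16 probe sets, with atrial pools in red on the left and ventricular pools in blue on the right of each panel, and the mean and SD of 4 pools in black. The vertical axes differ between panels and do not start at 0. The atrial points of Cd74 lie between 9.66 and 9.90, below all ventricular points (10.73 to 10.80).

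Cd74 encodes the invariant chain, the chaperone that fills the groove of new class II molecules and sorts them to endosomes. Its log2 signal was 9.90, 9.66, 9.84 and 9.86 in the atrial pools, against 10.78, 10.73, 10.75 and 10.80 in the ventricular pools. No atrial pool came near a ventricular one, and the SD between the ventricular pools was 0.03. It was 1.94 fold lower in the atria (-0.95, standard error 0.07, adjusted p = 1.4e-06 by limma) and passed the study thresholds, an adjusted p under 0.0001 with a fold of at least 1.8. Of the 16 probe sets 2 passed them, beside 1.87% of all probe sets that were lower in the atria by the same thresholds. The study took its false discovery rate from the permutation-based SAM, which was not run here. The adjusted p here is from limma, so the probe sets that pass the study's own cut may differ. RT1-Da (1.93 fold), RT1-Ba at 1377334_at (2.19 fold) and RT1-Bb at 1371065_at (2.01 fold) passed the fold but not the p.

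RT1-Da encodes the α chain of the rat D class II molecule, the counterpart of human HLA-DR. Its signal was 7.98, 7.48, 7.81 and 8.26 in the atria and 8.74, 8.78, 8.89 and 8.91 in the ventricles. The atrial pools spread more widely than the ventricular ones (SD 0.32 and 0.08), with replicate 2 lowest and replicate 4 highest, and did not reach them. RT1-Da was 1.93 fold lower in the atria (-0.95, standard error 0.14, adjusted p = 2.9e-04).

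RT1-Ba and RT1-Bb encode the α and β chains of the B class II molecule, the counterpart of HLA-DQ. At its probe set of highest mean (1377334_at) RT1-Ba had 6.53, 5.48, 6.32 and 6.43 in the atria and 7.43, 6.90, 7.21 and 7.73 in the ventricles. Replicate 2 was again the lowest atrial pool, and the groups did not overlap (-1.13, standard error 0.23, adjusted p = 0.0028). The second probe set (1370822_at) had 6.01, 5.91, 5.79 and 6.17 in the atria and 6.98, 7.29, 7.12 and 7.04 in the ventricles. It was 2.2 fold lower in the atria and passed the study thresholds (adjusted p = 5.8e-06).

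The other RT1-Ba probe sets differed by less. One, marked in its name as open to cross-hybridization (1381593_x_at), had 5.39, 5.69, 5.85 and 5.91 in the atria and 6.23, 6.18, 6.28 and 6.36 in the ventricles (-0.56, adjusted p = 0.002). At 1392334_at the atrial pools read 5.86, 5.73, 5.80 and 6.44 and the ventricular pools 6.46, 6.29, 6.50 and 6.42. Atrial replicate 4 lay among the ventricular pools there, and the difference of -0.46 (adjusted p = 0.023) lost its call when atrial replicate 1, 2 or 3 or ventricular replicate 1 or 3 was left out, at an adjusted p of 0.058, 0.067, 0.066, 0.054 and 0.06 (7.3e-05 to 0.067 over its alternatives).

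RT1-Bb had 6.16, 6.33, 5.55 and 6.43 in the atria and 7.01, 7.45, 7.22 and 6.80 in the ventricles. The lowest atrial pool was replicate 3, and the groups did not overlap (2.01 fold lower in the atria, standard error 0.19 on the log2 scale, adjusted p = 0.0017). Its other probe set (1371033_at) was near the low end of the intensities, taken as a log2 mean under 4, with 3.20, 3.27, 3.77 and 3.39 in the atria and 3.16, 3.39, 3.11 and 4.54 in the ventricles. The groups overlapped and it did not pass the threshold (-0.14, adjusted p = 0.71). Of the 8 class II probe sets 7 were thus lower in the atria, by -0.46 to -1.14.

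**Figure D2:**
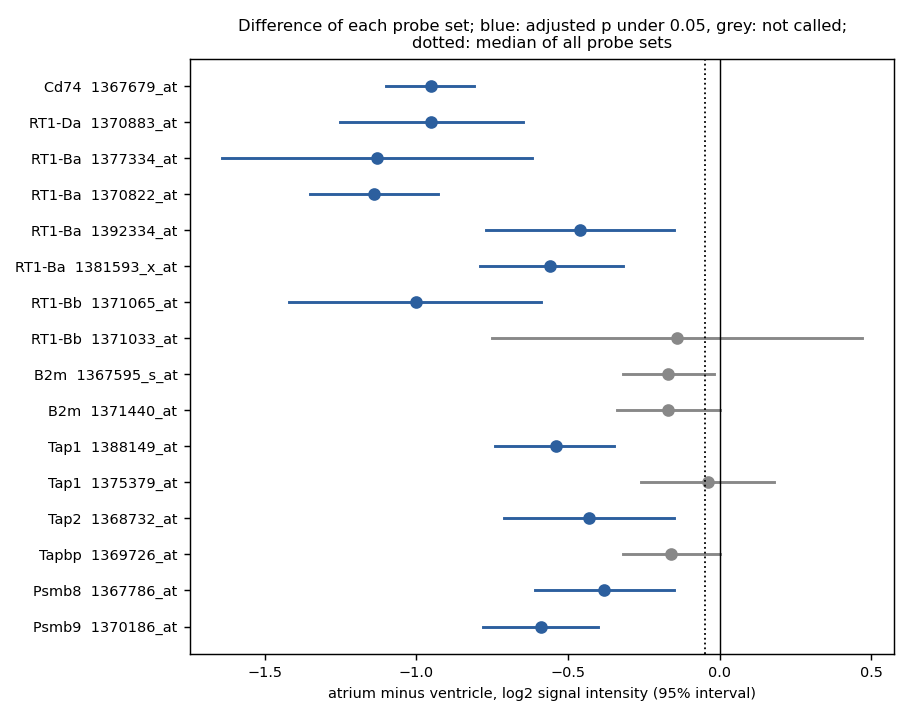
Difference between atrium and ventricle in log2 signal intensity for the 16 probe sets, with 95% intervals from limma. Blue marks the 11 probe sets that were lower in the atria and grey the 5 not called, the dotted line is the median of all probe sets (-0.05), and the 2 points farthest to the left are those of RT1-Ba at -1.13 and -1.14.

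B2m is the light chain of every classical class I molecule. Its signal was 11.91, 11.72, 11.84 and 11.91 in the atria and 12.10, 11.94, 12.00 and 12.02 in the ventricles. The atrial pools were all below the ventricular ones, but by a margin of -0.17 (95% interval -0.32 to -0.02) that did not pass after adjustment (adjusted p = 0.066). The other B2m probe set gave 10.04, 9.82, 9.90 and 9.82 in the atria and 10.13, 9.98, 9.95 and 10.19 in the ventricles, with the same difference and overlapping pools (adjusted p = 0.11). The call of the first probe set depended on the processing: it passed in 5 of 15 alternatives, with adjusted p from 0.008 to 0.17.

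Tap1 and Tap2 form the peptide transporter. Tap1 had 5.92, 5.58, 5.83 and 5.72 in the atria and 6.32, 6.18, 6.26 and 6.48 in the ventricles. Every atrial pool was below every ventricular one (-0.54, standard error 0.09, adjusted p = 7.1e-04). Its second probe set (1375379_at) was near the low end of the intensities, between 2.71 and 3.16 in the atria and between 2.85 and 3.09 in the ventricles, and did not pass (adjusted p = 0.79).

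Tap2 had 5.39, 5.41, 5.62 and 5.01 in the atria and 5.86, 5.98, 5.60 and 5.71 in the ventricles. Atrial replicate 3 lay just above ventricular replicate 3, so the groups overlapped, and replicate 4 was the lowest atrial pool. The difference of -0.43 (standard error 0.13, adjusted p = 0.021) did not pass without ventricular replicate 1 (0.054), without ventricular replicate 2 (0.062) or without atrial replicates 1 and 4 together (0.093, over a range of 0.01 to 0.093).

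Tapbp, tapasin, holds empty class I molecules at the transporter until a peptide fits. It had 6.67, 6.48, 6.63 and 6.57 in the atria and 6.68, 6.81, 6.85 and 6.64 in the ventricles. The pools overlapped and the difference of -0.16 (95% interval -0.32 to 0.00) did not pass (adjusted p = 0.11, 0.032 to 0.25 over the alternatives).

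Psmb8 and Psmb9 are the inducible subunits that take the place of Psmb5 and Psmb6 in the catalytic core of the immunoproteasome. Psmb8 had 6.83, 6.74, 6.52 and 6.53 in the atria and 7.29, 7.01, 6.94 and 6.89 in the ventricles. Psmb9 had 7.21, 6.87, 7.07 and 6.99 in the atria and 7.73, 7.56, 7.50 and 7.71 in the ventricles. In both genes the groups did not overlap. Psmb8 was 1.3 fold lower in the atria (-0.38, standard error 0.10, adjusted p = 0.015) and Psmb9 1.51 fold (-0.59, standard error 0.09, adjusted p = 3.0e-04).

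To see whether the inducible subunits differed in another way than those they replace, the difference of each pair was taken within each array. Psmb8 minus Psmb5 differed by -0.13 between atria and ventricles (exact two-sided permutation test, p = 0.257, adjusted p = 0.257 over 2 pairs). Psmb10 minus Psmb7 differed by 0.09 (exact p = 0.229, adjusted p = 0.257). With 4 pools against 4 the smallest p that this test allows is 0.0286. Adjusted over 2 pairs, 1 pair alone at that p stands at 0.0571, so it cannot pass 0.05 by itself. Psmb5 (-0.24, adjusted p = 0.009) and Psmb7 (-0.28, adjusted p = 0.0043) were themselves lower in the atria. Over the alternatives the first difference was -0.26 with the mean of each gene's probe sets (adjusted p = 0.0571, exact permutation test, up to 0.514 over its alternatives) and -0.06 without ventricular replicate 1, and the second was 0.05 without atrial replicate 1 or with quantile normalization. The pair of Psmb9 was not tested, since the probe set of Psmb6 also lists a second gene.

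Of the 10 members 7 lie in the class II segment of chromosome 20 in the reference gene order (GRCr8), with other genes between some of them. From RT1-Da to RT1-DMa the segment holds 13 genes, of which 10 were measured, 7 of them members. All 10 were lower in the atria, and the non-members RT1-Db1, RT1-DMb and RT1-DMa are counted again below among other class II genes. Among the 10 measured genes on either side, 5 of 20 were lower, 3 were higher and 12 were not called. Over all genes 22.5% were lower and 22.5% higher. Before the segment 4 were lower and 1 was higher, and after it 1 was lower and 2 were higher. The zinc transporter Slc39a7 was higher by 0.90, and Notch4 differed by -0.69. The flanking genes were chosen after the values had been seen, and neighbours need not vary independently.

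**Figure D3:**
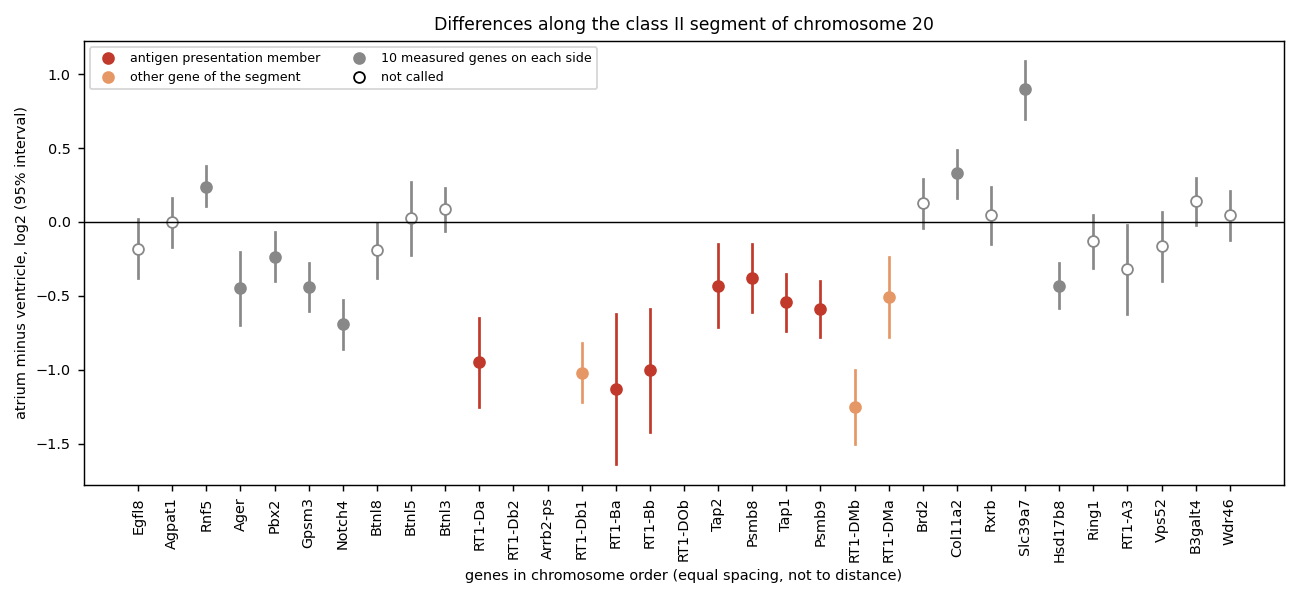
Difference between atrium and ventricle in log2 signal intensity with 95% intervals, for genes in chromosome order at equal spacing. Members are red, other genes of the segment orange and the 10 measured genes on each side grey, open circles are not called, and genes with no point were not analysed here. The 10 measured genes of the segment run from -0.38 (Psmb8) to -1.25 (RT1-DMb).

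Other class II genes were lower in the atria as well. All 3 measured of 6 listed passed the test, beside 22.5% of all genes that were lower in the atria. RT1-DMb, a chain of the DM molecule that trades the invariant chain fragment for a peptide, had 5.96, 5.80, 6.13 and 6.36 in the atria and 7.26, 7.31, 7.21 and 7.48 in the ventricles (-1.25, adjusted p = 1.0e-05). RT1-Db1, the β chain partner of RT1-Da, differed by -1.02 (adjusted p = 8.2e-06) and the other DM chain, RT1-DMa, by -0.51 (adjusted p = 0.0073), the last with overlapping pools.

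Of 15 measured class I and class I-like genes, 6 were lower, 1 was higher and 8 did not pass, with a median of -0.24 against -0.04 over all genes. The shares over all genes were 22.5% lower and 22.5% higher. RT1-T24-3 (-1.24, adjusted p = 1.9e-05) and RT1-CE10 (-0.57, adjusted p = 0.0025, atrial mean near the low end) were the farthest below 0. Cd1d1, which presents lipids, was higher in the atria by 0.79 (adjusted p = 5.9e-04). Class I genes of the rat are near copies of one another, so a probe set may read more than the gene it is named for. Probe sets annotated to several RT1-A genes were kept out of these counts. They differed by -0.86, -0.40, -0.40 and -0.17 between atria and ventricles (adjusted p = 6.3e-04, 0.014, 0.029 and 0.18 by limma). All but the last were called lower in the atria.

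The lists of class I loading and trimming and of class II processing had most of their calls in the other direction. Among all genes 22.5% were higher in the atria and 22.5% lower. Of 7 measured genes of class I loading and trimming 4 were higher in the atria and 0 were lower (also 0 at an unadjusted p under 0.05): Bcap31 (0.44), the chaperone calreticulin Calr (0.42), the disulfide isomerase Pdia3 (0.41) and Uggt1 (0.19). Of 11 measured genes of class II processing 6 were higher and 1 was lower, with a median of 0.50. Those with the largest differences were the ubiquitin ligase Marchf8 (0.73) and the cathepsin inhibitor cystatin C (Cst3, 0.72). Marchf1, the ligase that removes class II from the surface of dendritic and B cells, was -0.29 with both means near the low end, and it lost its call without atrial replicate 1 or 3 or ventricular replicate 2 or 4.

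Among 4 partners of the immunoproteasome, Psme2 (-0.29, adjusted p = 0.0025) and Psmb10 (-0.19, adjusted p = 0.046) were lower, a count of 2 that was 1 when any array but atrial replicate 1 was left out. The constitutive core had 3 of 13 higher (Psma2 0.30, Psmb1 0.21 and Psma6 0.19) and 3 lower (Psmb7 -0.28, Psma7 -0.25 and Psmb5 -0.24), with a median of 0.04. These counts were near the shares over all genes, 22.5% higher and 22.5% lower.

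Of 16 measured regulators 5 were lower in the atria and 3 were higher, with a median of -0.00. Over all genes 22.5% were lower and 22.5% higher. Ciita, the coactivator that class II promoters need, had 3.78, 3.91, 4.01 and 4.05 in the atria and 4.25, 4.28, 4.30 and 4.58 in the ventricles (-0.41, adjusted p = 0.0042), with the atrial mean near the low end. Nlrc5, its class I counterpart, differed by -0.47 with both means near the low end (adjusted p = 0.0011). The interferon regulatory factor Irf1 had 7.04, 6.79, 6.81 and 6.70 in the atria and 7.60, 7.47, 7.44 and 7.44 in the ventricles (-0.65, adjusted p = 1.0e-04). Irf8 (-0.49) and Rfxank, a subunit of the factor that binds the X box (-0.34), were also lower, while Rfx5 of the same factor (0.41), the interferon-gamma receptor kinase Jak2 (0.58) and Nfyb, a subunit of the factor that binds the Y box (0.28), were higher.

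Of 22 measured interferon response genes 15 were lower in the atria and 0 were higher, at a median of -0.52, and at an unadjusted p under 0.05 the counts were 17 and 1. At the adjusted threshold 22.5% of all genes were lower and 22.5% higher. The T cell attractant Cxcl11 had 5.09, 4.51, 4.40 and 4.56 in the atria and 8.21, 8.45, 8.61 and 8.34 in the ventricles (-3.76, adjusted p = 2.1e-08). Its relative Cxcl9 differed by -1.36 (adjusted p = 3.3e-04). Of 5 measured costimulatory and adhesion ligands Cd40 was lower (-0.31) and Vcam1 (2.80) and Icam1 (0.35) were higher. Their median was -0.03 and their mean 0.54, of opposite sign, and without ventricular replicate 3 the counts were 0 lower and 1 higher.

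**Figure D4:**
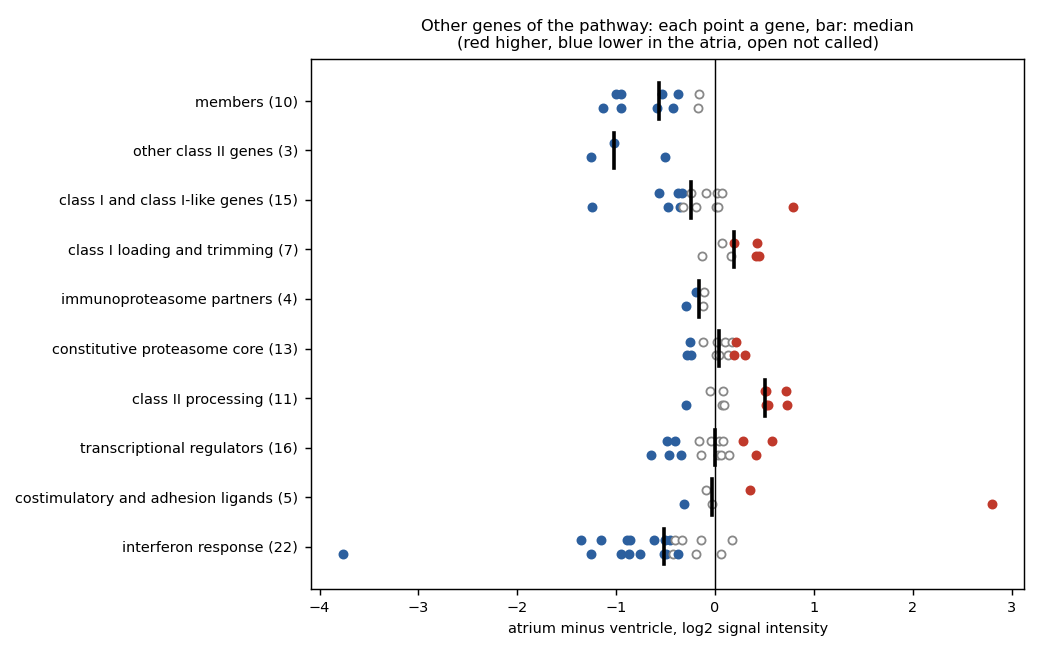
Difference between atrium and ventricle in log2 signal intensity for the members and 9 lists of related genes, at 1 probe set per gene, with the number measured in brackets. Red and blue genes were called higher and lower in the atria, open circles were not called and bars are medians, which run from -1.02 (other class II genes) to 0.50 (class II processing).

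Markers of the cells that could carry these transcripts also differed, in directions that varied between the lists. The share over all genes was 22.5% lower in the atria and 22.5% higher. Of 7 leukocyte markers 6 were lower in the atria and 0 higher (0 at an unadjusted p under 0.05), with a summed linear signal of 1030 to 1190 in the atrial pools and 1270 to 1410 in the ventricular pools. Ptprc (CD45) differed by -0.78 and Lcp1 by -0.71. Cd48, the brightest marker in that sum, was not called (-0.07, adjusted p = 0.46 by limma). B cell markers were lower in 4 of 5 (summed 76 to 88 in the atria and 197 to 269 in the ventricles), with Fcer2 at -3.78 and Cd79b at -0.50. The atrial means of both are near the low end, so the size of these differences is not exact, and Ms4a1 and Blnk are near it as well. Most of the gap in the sums was Fcer2: the other 4 markers summed to 64.3 to 77 in the atria and 84.9 to 93 in the ventricles. T and NK cell markers were lower in 9 of 11 (summed 141 to 151 in the atria and 195 to 204 in the ventricles), with Nkg7 at -0.85 and Prf1 at -0.61. Of the 11 markers 7 were near the low end, Prf1, Cd3e, Cd3d, Cd3g and Cd8a among them.

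Macrophage markers were split, beside 22.5% of all genes lower in the atria and 22.5% higher. Of 18 measured 9 were higher in the atria, with Lyve1 at 1.19 and Cd14 at 0.60, and 3 were lower, among them Fcer1g (-0.41) and Tyrobp (-0.29), and their summed signals overlapped (2350 to 2950 in the atria and 2230 to 2650 in the ventricles). Lyz2, the brightest marker in the macrophage sums, was not called (-0.29, adjusted p = 0.06 by limma). Dendritic cell markers had 1 of 5 higher (Flt3, 0.61) and 2 lower (Itgax, -0.68, and Clec9a, -0.45, with both means near the low end), summed at 104 to 124 in the atria and 121 to 135 in the ventricles. Endothelial markers were lower in 10 of 13, with Kdr at -1.34 and Tie1 at -1.12, and Vwf was higher (0.93), with sums of 6020 to 7480 in the atria and 8530 to 9280 in the ventricles. Fabp4, the brightest marker in the endothelial sums, was not called (-0.19, adjusted p = 0.49 by limma) and ran from 10.38 to 11.59 in the atrial pools. Fibroblast markers were higher in 7 of 7 (summed 13700 to 15600 in the atria and 10800 to 12300 in the ventricles). Mesothelial markers were higher in 4 of 5, with Upk1b at 5.04 (ventricular mean near the low end) and Msln at 4.40, and Wt1 was lower (-0.38), with sums of 930 to 1760 in the atria and 154 to 180 in the ventricles. Adipocyte markers were higher in 4 of 5, with Adipoq at 3.23 and Plin1 at 2.93 (both ventricular means near the low end), summed at 228 to 1490 in the atria and 76 to 85 in the ventricles. The part of any of these cells in the differences of the members was not tested.

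**Figure D5:**
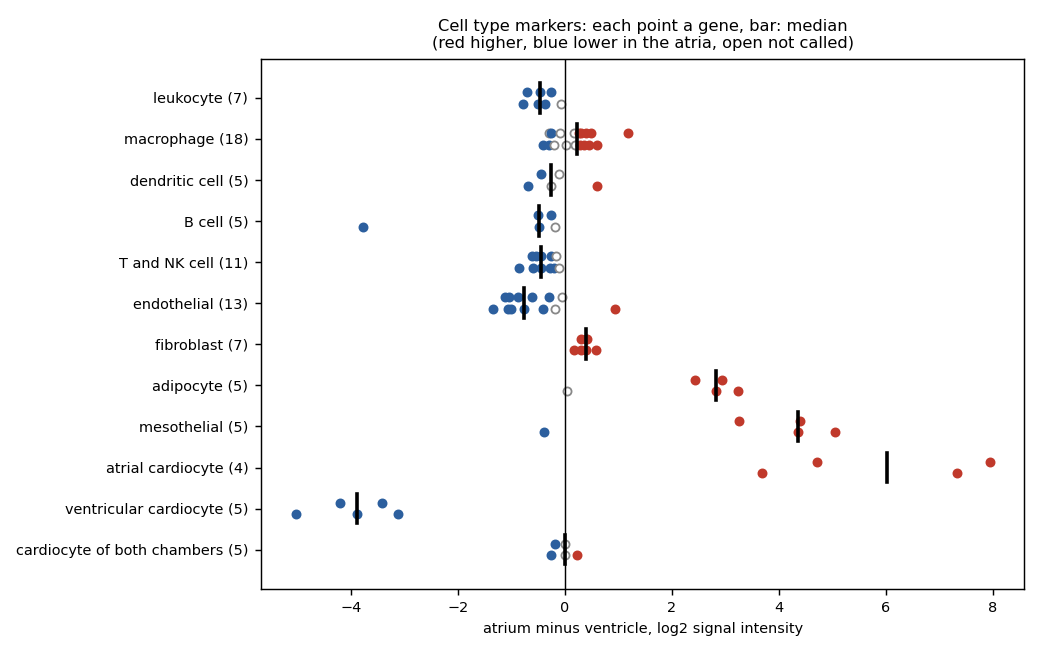
Difference between atrium and ventricle in log2 signal intensity for markers of 12 cell types, at 1 probe set per gene, with the number measured in brackets. Colors and bars are as in the plot of related genes. Medians run from -3.89 (ventricular cardiocyte) to 6.02 (atrial cardiocyte), with endothelial markers at -0.76, leukocyte markers at -0.46 and macrophage markers at 0.23.

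The tissues matched their labels in the markers of the muscle. The atrial light chain Myl7 (4.71) and the atrial hormone gene Nppa were higher in the atria. For Nppa the study considers the array signal saturated, so its difference is at least 3.69. The ventricular light chain Myl2 (-5.03) and the transcription factor Irx4 were lower, Irx4 by -4.21 with its atrial mean near the low end, so that its size is not exact. Among the atrial pools Myl2 stood at 10.48 (replicate 1), 4.32 (replicate 2), 6.82 (replicate 3) and 11.30 (replicate 4). The member count was 11 with replicates 1 and 4 left out together, but not of the same probe sets. Tap2 then lost its call (-0.27, adjusted p = 0.093 by limma). B2m gained one at its probe set of highest mean (-0.23, adjusted p = 0.04). At the probe sets of highest mean Cd74 then differed by -1.02, RT1-Da by -1.18, RT1-Ba by -1.42 and RT1-Bb by -1.18. Each of these was farther below 0 than with all pools. The adipocyte markers were highest in atrial replicate 4 (Plin1 9.03, against 4.37 to 6.75 in the other atrial pools), and without that pool the member count was 11. Atrial replicate 2 was the lowest atrial pool in 9 of the 16 member probe sets and ventricular replicate 4 the highest ventricular pool in 7. Leaving out each array in turn left 9 to 11 member probe sets lower and 0 higher.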

How the data were processed

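RNA of 4 atrial and 4 ventricular pools (10 micrograms per array) was hybridized to Affymetrix rat arrays. The authors deposited log2 signal intensities made by RMA, whose version is not given in the sources used here. The 8 arrays had medians of 4.80 or 4.81, and values ran from 1.90 to 13.77. Depth does not apply, and the number of arrays limits the precision. How the animals were divided among pools is not given, so p-values measure the spread between these pools.

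Atrium was compared with ventricle, unpaired, with limma 3.58.1 in R 4.3.3, adjusted by Benjamini-Hochberg over 31042 probe sets, with calls at an adjusted p under 0.05. The procedure was tested on simulated data. The permutation-based SAM of the study's methods was not run. Symbols came from the platform annotation (20826 probe sets with 1 symbol, 436 with several and 9780 with none listed). Of those with 1 symbol, 20758 were matched by gene ID to RefSeq, whose symbol was then used. A gene was represented by its probe set of highest mean.

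The members and the lists (9 of related genes and 12 of cell types) were chosen with earlier results of these data known, and the lists are described by counts and medians with no set test. The design named 3 subunit pairs, and 2 were run, because the Psmb6 probe set is annotated to a second gene. List genes were named from the 2 with the largest called differences in each direction, with Ciita, Nlrc5, Irf1, Psmb5, Psmb7, Psmb10, Nppa, Myl7, Myl2 and Irx4 whatever their value and Cd1d1, Marchf1, Vwf and Wt1 as genes that oppose most of their list. RT1-DMa, Pdia3, Uggt1, Psma6, Rfxank, Nfyb, Slc39a7, Notch4 and the shared RT1-A probe sets were named after their values were seen. So were the markers Ms4a1, Blnk, Cd3e, Cd3d, Cd3g, Cd8a, Cd48, Fabp4 and Lyz2. Members of lists with no probe set of their own were not analysed here, except that probe sets shared by RT1-A genes are given apart. Alternatives were a trended and robust fit, a block by replicate number, 3 scalings between arrays, omission of the dimmest 40% of probe sets, each array left out in turn, atrial replicates 1 and 4 left out together, and the mean of a gene's probe sets. Plots used matplotlib 3.10.9 (Python 3.11.15).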

Additional observations from a re-analysis of the deposited data

Results flagged for a closer look

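In 152 groups of 4 pools, each a tissue at 1 named probe set, 3 pools stood apart from the other 3 by a gap above Dixon's 95% critical value for 4 samples, which chance exceeds in about 1 in 20 groups. Cxcl9 was 5.89 in atrial replicate 4, with a gap of 0.865 of the range to the nearest atrial pool. Ptprc was 6.16 in ventricular replicate 4, against 5.72, 5.73 and 5.70. Ciita was 4.58 in the same ventricular pool, against 4.25, 4.28 and 4.30. None of the 16 member probe sets had such a pool.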

How the results depend on the processing

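Over the alternatives run, 150 of 160 member gene differences kept their direction and side of the threshold, 3 lost their call (all Tap2), 7 gained one (B2m and Tapbp) and 0 turned. The member probe sets past the study thresholds were 2, and 1 with the replicate block, in which RT1-Ba at 1370822_at had an adjusted p of 1.5e-04 (2 to 3 with each array left out). The replicate block left 11 member probe sets lower. Residual correlations between atrial and ventricular pools of the same number were 0.134, 0.155, -0.148 and -0.188 for numbers 1 to 4. They were 0.225 for atrial replicate 3 with ventricular replicate 4 and 0.278 for atrial replicate 4 with ventricular replicate 3. The remaining combinations ran from -0.132 to 0.0612. Which pools share animals is not given, and no pairing other than by number was fitted. The immunoproteasome partners lower in the atria numbered 4 with the trended and robust fit, 1 with the replicate block and 1 without atrial replicates 1 and 4 (1 to 2 with each array left out). Without those replicates the constitutive core had 1 gene higher, class II processing 0 lower and the costimulatory ligands 1 higher. Class II processing also had 0 lower with quantile normalization, cyclic loess or the dimmest 40% left out (0 to 1 with each array left out). Costimulatory ligands had 1 higher with quantile normalization, and with each array left out 1 to 2 higher and 0 to 1 lower. Interferon response genes had 1 higher with the trended and robust fit (0 to 1 with each array left out). The causes were not tested. Scalings moved the median of all probe sets by at most 0.05. Signals near the low end of the intensities limit RT1-Bb and Tap1 at their second probe sets.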
